A study of Mus musculus with 5 samples.

Results

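The comparison sets induced pluripotent stem (iPS) cells beside freshly isolated alveolar epithelial type II (AEC-II) cells of the mouse, as the log2 expression value on the iPS array minus that on the Day0 array. Genes were taken from the probes paired with exactly 1 gene symbol, with the probe of the highest mean where a gene had several, and kept where the brightest of the 5 arrays of the series reached 4.78, the median of all deposited values. This left 15436 of 22180 genes, read from 23521 of 41345 probes. Each side is 1 array, so there is no spread between replicates, no test was run, and "higher" and "lower" mean at least 2-fold apart (a log2 difference of 1 or more in size) between these arrays.

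The Day0 array holds AEC-II cells from adult mice with the double transgene R26-rtTA/Col1a1::tetO-4F2A, in which doxycycline (Dox) switches on Oct4 (Pou5f1), Sox2, Klf4 and Myc (OSKM) to reprogram cells. The paper reports its profiling in a section on such mice that also carry an Oct4-GFP reporter. Whether the arrayed cells carried this reporter is not spelled out there. The cells were isolated with elastase and defined by sorting as EpCAM+ cells without CD45 or CD31, and had no Dox. The iPS array is labelled only as iPS, and its labels also give lung as the tissue and adult as the age. The cells they came from, their genotype, clone number, sex, medium and feeder layer are not given in the sources used here. The other arrays entered the filter on dim genes, the choice of a gene's probe and the median of all values, and gave levels set side by side. They hold AEC-II cells cultured for 2 weeks without Dox (2WND), then for 2 weeks with Dox (2WND+2W+D), then for 2 weeks after its withdrawal (2WND+2W+D+2W-D). The methods describe such cultures as grown in Matrigel over mouse embryonic fibroblast feeders, with a change from epithelial to ES medium when Dox was added. RNA from 3 separate samples in each group was used, and whether these were combined on the array is not stated.

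AEC-II cells are the cuboidal cells of the alveolus that make pulmonary surfactant, the film of phospholipid and protein that lowers surface tension. They store it in lysosome-related organelles called lamellar bodies, also take part in innate defence and antigen presentation, and act as progenitors of the flat type I cells (AEC-I) that cover most of the alveolar surface. Their identity rests on transcription factors such as Nkx2-1, Foxa1, Foxa2 and Cebpa. Mouse iPS cells are held in a self-renewing state by a network of transcription factors built around Oct4 (Pou5f1), Sox2 and Nanog, divide rapidly with a short G1 phase, and express germline genes that differentiated cells keep silent by DNA methylation and repressor complexes.

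The labels were first checked against cell type markers. Of 8 AEC-II markers (Sftpc, Sftpa1, Sftpb, Abca3, Lamp3, Slc34a2, Napsa and Etv5), 8 were at or above 4.78 on the Day0 array, with a median level of 13.02, and 6 were on the iPS array, with a median of 5.29. Of 9 markers of pluripotent cells (Nanog, Sox2, Pou5f1, Esrrb, Zfp42, Dppa5a, Tdgf1, Fgf4 and Lin28a), 9 were at or above 4.78 on the iPS array, with a median of 7.81, against 5 on Day0, with a median of 5.26. AEC-II markers at the level of the Day0 array were therefore absent from the iPS array, whatever its lung label. Of 7 fibroblast markers, among them Col1a1 and Pdgfra, 7 were at or above 4.78 on the iPS array and 5 on Day0, and their levels are given beside the matrix genes.

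Of the genes compared, 2978 (19.3%) were higher and 2635 (17.1%) lower in iPS cells, and the median difference was 0.00. At 4-fold, 1170 (7.58%) were higher and 1010 (6.54%) lower. Counted from 4.78, 89 genes were lower by 32-fold or more and 32 were higher by that much, so the largest gaps were on the side of genes lower in iPS cells. The differences ran from -9.47 to 8.19 with a robust spread of 1.03, against 0.23 for the closest pair of arrays in the series (2WND and 2WND+2W+D+2W-D). Near the 2-fold line, the smallest difference counted as higher was 1.00014 and the largest not counted was 0.99991, on the lower side these were -1.00074 and -0.99982, and 1147 genes (7.43%) lay within 0.1 of the line, so a count near the line rests on small differences. Where 1 array of a gene lay below 4.78, its fold was counted from 4.78 and is given as at least that much, and no fold is given where both did.

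**Figure D1:**
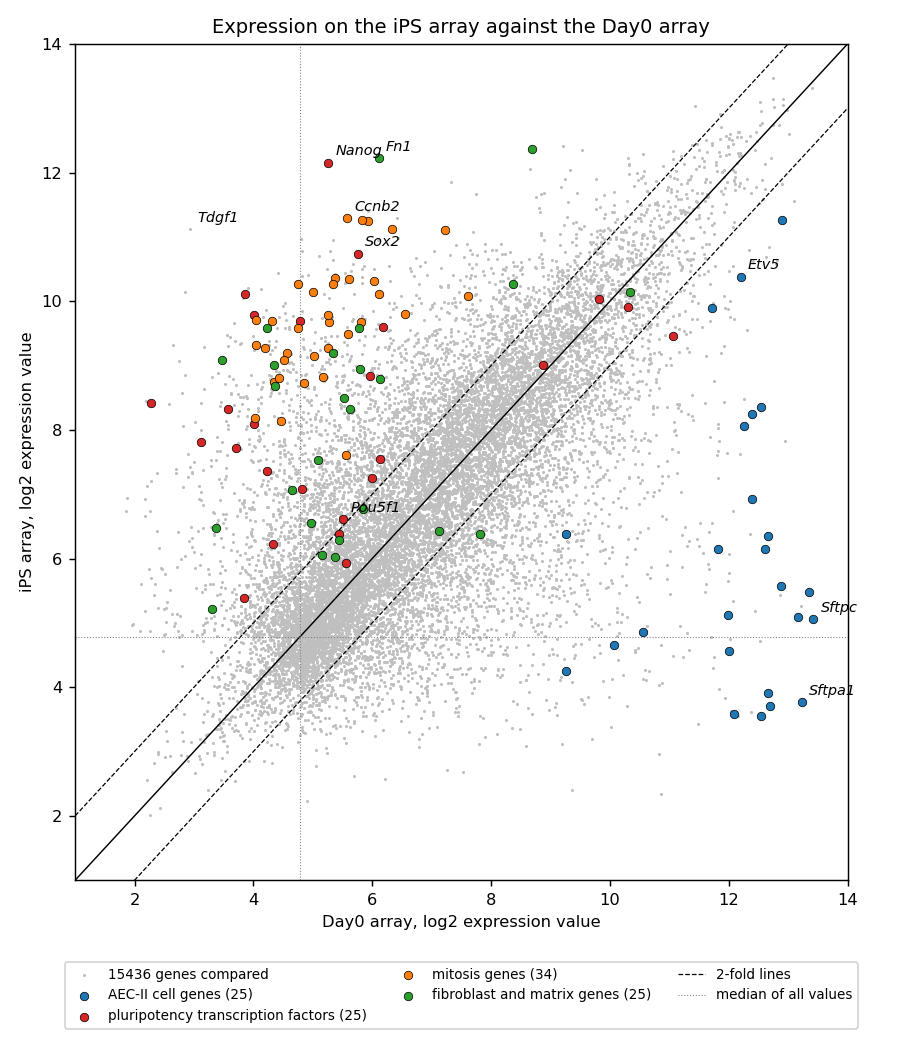
Log2 expression value on the iPS array (vertical) against the Day0 array (horizontal) for 15436 genes, each point being 1 gene on 1 array a side, with dashed 2-fold lines and dotted lines at 4.78, the median of all values. AEC-II cell genes lie at the lower right, and mitosis genes and most pluripotency transcription factors at the upper left.

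The levels on the other 3 arrays place the difference. Of the 2978 genes higher in iPS cells, 1590 (53.4%) were at least 2-fold above each of the other 4 arrays on iPS, which is 10.3% of the genes compared, and 523 (17.6%) were at least 2-fold lower on Day0 than on each other array (3.39% of the genes compared). Of the 2635 lower genes, 1065 (40.4%) were at least 2-fold below each of the other 4 on iPS (6.9% of the genes compared), and 430 (16.3%) were at least 2-fold above each of the other 4 on Day0 (2.79%). Gene lists of pathways and cell types, 46 lists with 1070 genes, were then described by their counts. Of these genes 965 had a probe with 1 symbol and 907 were compared, of which 334 were higher and 267 lower, beside 19.3% and 17.1% over all genes compared.

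The surfactant protein genes had the widest gaps, with 4 of 4 lower and a median difference of -8.44. Sftpa1, which encodes the collectin surfactant protein A, was at 13.23 on Day0, 9.71, 10.14 and 10.47 on 2WND, 2WND+2W+D and 2WND+2W+D+2W-D, and 3.76 on iPS, at least 349-fold lower. Sftpc, the hydrophobic peptide by which AEC-II cells are usually identified, was at 13.43 on Day0, 13.44, 13.43 and 13.49 on the cultured arrays and 5.06 on iPS, 330-fold lower. Sftpb, the peptide that is needed to form lamellar bodies, was at 13.17 on Day0, from 12.04 to 12.32 on the cultured arrays and 5.09 on iPS, 271-fold lower. Sftpd, the second collectin, went from 12.10 to 3.59, at least 159-fold lower, after 10.57, 8.83 and 10.50 on the cultured arrays. The 4 genes were thus high on Day0, still above 8 on each cultured array, and lowest on iPS, where 2 of the 4 lay below 4.78. In bulk RNA, here and in the lists that follow, fewer cells of a type and less RNA per cell cannot be told apart.

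The promoters of Sftpb and Sftpa1 are shown because they are the surfactant protein genes with a window in the promoter table and hold the core letters read by Nkx2-1. Sequences are the 250 bases before the gene's start on the gene's strand, from RefSeq windows of GRCm38.p6, and capitals mark CTCAAG or its reverse complement, searched on both strands. Sftpb lies at chr6:72304360-72304609 on the plus strand, with matches at -100 and -15 (-1 being the base just before the start), and Sftpa1 at chr14:41131538-41131787 on the plus strand, with 1 match at -166.
Sftpb: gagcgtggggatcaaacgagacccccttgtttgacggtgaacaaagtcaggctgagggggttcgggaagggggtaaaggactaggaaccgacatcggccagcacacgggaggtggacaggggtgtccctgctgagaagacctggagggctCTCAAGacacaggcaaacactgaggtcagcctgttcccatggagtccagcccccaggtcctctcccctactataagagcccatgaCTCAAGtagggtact
Sftpa1: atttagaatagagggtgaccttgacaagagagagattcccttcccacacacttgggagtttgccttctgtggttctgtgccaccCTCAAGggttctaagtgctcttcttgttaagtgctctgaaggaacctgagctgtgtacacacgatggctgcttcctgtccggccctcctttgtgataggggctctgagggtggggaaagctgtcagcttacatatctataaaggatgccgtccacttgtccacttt
CTCAAG was found in 16.2% of all 27025 promoter windows (250 bases before to 50 after the start), in 14.2% of those of the genes compared, in 14.7% of those of genes higher in iPS cells and in 13.2% of those of genes lower. In the AEC-II list, 6 of 20 genes with a window held it (Sftpa1, Sftpb, Muc1, Cxcl15, Ppp1r14c and Rab27a). A match gives letters only, and whether a factor binds there was not tested.

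AEC-II cell genes were lower throughout their list. Of 25 genes with a probe, among them the surfactant proteins, 25 were lower, with a median difference of -6.32, and 21 were at least 2-fold below each of the other 4 arrays on iPS. Cxcl15 (lungkine, a chemokine of lung epithelium) went from 12.69 on Day0 through 11.12, 10.82 and 11.61 to 3.71 on iPS, at least 240-fold lower. Hc, the complement component C5, went from 12.65 through 8.74, 9.69 and 8.74 to 3.91, at least 234-fold lower, and Lyz1, a lysozyme, from 12.00 to 4.57, at least 149-fold lower, with values from 5.64 to 5.78 on the cultured arrays. For Lyz1 most of the gap to Day0 was therefore seen on the cultured arrays too. The smallest gaps of the list were those of Fabp5, a fatty acid binding protein (3.13-fold), Bex2 (3.53-fold) and Etv5, an ETS factor downstream of FGF signals that AEC-II cells need. Etv5 was at 12.21 on Day0, 8.42, 8.86 and 8.80 on the cultured arrays and 10.38 on iPS, 3.54-fold lower than Day0 and above each cultured array.

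**Figure D2:**
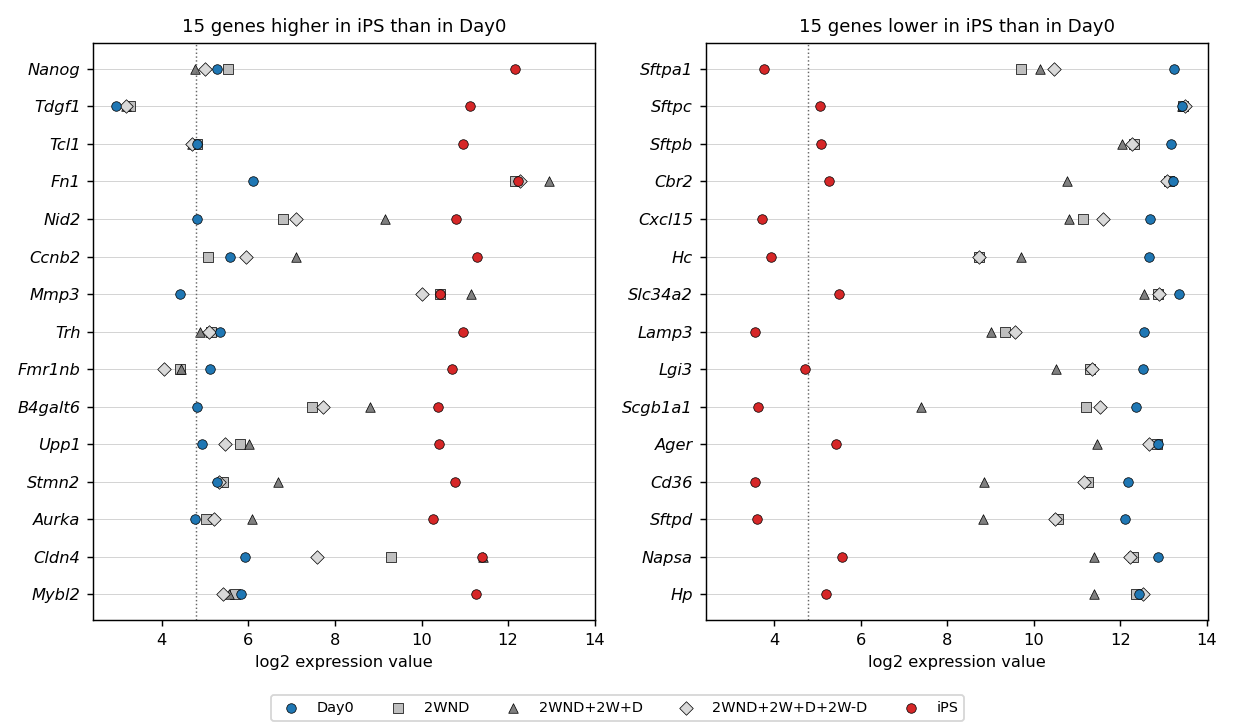
Log2 expression values on the 5 arrays (1 point per array) of the 15 most different genes on either side, counted from 4.78 (dotted line) and without predicted genes, small RNAs and receptor families. Nanog, Tdgf1 and Tcl1 stand apart on the iPS array alone, Fn1 and Mmp3 are low on Day0 alone, and the 15 genes lower in iPS cells are lowest on that array.

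The machinery that packs surfactant was lower as well. Of 18 lamellar body and surfactant processing genes compared, of 19 with a probe, 14 were lower and 0 higher (median -3.65). Slc34a2, the phosphate transporter of AEC-II cells, went from 13.35 on Day0 to 5.48 on iPS, 233-fold lower, Lamp3 (DC-LAMP, a lamellar body membrane protein) from 12.54 to 3.55, at least 216-fold, and Napsa (napsin A, a protease that processes proSP-B) from 12.88 to 5.57, 159-fold. Abca3, the phospholipid pump of the lamellar body, went from 12.40 through 11.04, 9.92 and 11.02 to 6.92, 44.5-fold lower. Cd36, a fatty acid transporter counted in the same list, was at least 167-fold lower. The general lysosomal proteins Lamp1 and Lamp2, with Anxa2 and Hps1, were the 4 members within 2-fold. Lipid genes were split. Of 34 lipid synthesis and transfer genes, 21 were lower and 4 higher (median -1.50). Among the lower genes were Acoxl, an acyl-CoA oxidase-like enzyme (at least 93.2-fold), Acsl5 (28.8-fold), Scd1, the stearoyl-CoA desaturase (18.2-fold), and Fasn, fatty acid synthase (4.66-fold). The 4 higher genes were Elovl6, which elongates C16 fatty acids and went from 4.49 on Day0 to 9.92 on iPS (at least 35.2-fold), Agpat4 (6.21-fold), Abcg1 (4.27-fold) and Pltp (2.18-fold).

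Transcription factors of the lung epithelium were mostly lower or within 2-fold. Of 41 with a probe, 23 were lower and 3 higher (median -1.19). Foxa1, a pioneer factor of endoderm, was at 9.51 on Day0, 8.19, 7.33 and 8.47 on the cultured arrays and 3.81 on iPS, at least 26.4-fold lower. Nkx2-1, the factor that defines lung epithelium, was at 8.12 on Day0, 7.56, 7.17 and 7.47 on the cultured arrays and 4.75 on iPS, at least 10.1-fold lower. Both were above 4.78 on the other 4 arrays and below it on iPS alone. Ehf (at least 20.1-fold), Nfia (12.0-fold), Cebpa (10.9-fold) and Nfib (9.77-fold) were lower too, while Elf3 was at 7.88 on iPS against 7.86 on Day0. Higher were Etv4, an FGF-responsive ETS factor (at least 7.04-fold), Tbx3, which is also expressed in pluripotent cells (7.36-fold), and Id3, an inhibitor of bHLH factors (2.79-fold).

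AEC-I genes and transporters followed with exceptions. Of 22 AEC-I genes, 13 were lower and 3 higher (median -2.04). Ager, the receptor RAGE of the AEC-I basal membrane, went from 12.87 on Day0 and 12.84, 11.46 and 12.65 in culture to 5.43 on iPS, 174-fold lower, Cldn18, the lung claudin, was 62.7-fold lower, and Aqp5, the AEC-I water channel, went from 10.61 to 4.11, at least 56.8-fold. Hopx, a homeodomain protein used to mark AEC-I cells, was at 5.08 on Day0 and 4.37 on iPS. Pdpn (podoplanin, T1alpha) was 3.11-fold higher, Igfbp2, an IGF binding protein, 7.69-fold and S100a6 3.03-fold. Of 27 ion, water and phosphate transport genes, 20 were lower and 2 higher (median -3.97). Scnn1a and Scnn1b, subunits of the epithelial sodium channel, were 56.7-fold and 18.8-fold lower, and Cftr, the chloride channel, went from 8.48 on Day0 to 3.36 on iPS, at least 13-fold, with 3.62 to 4.35 on the cultured arrays. The 2 higher genes were Aqp3, the aquaglyceroporin (11.5-fold), and Slc7a7 (3.11-fold).

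The epithelial surface itself differed less. Of 39 junction and keratin genes, 15 were lower, 4 higher and 20 within 2-fold (median -0.63). Cdh1 (E-cadherin), which AEC-II and mouse pluripotent cells both need for contact, was at 12.08 on Day0 and 11.24 on iPS, and Epcam, the sorting marker, at 8.34 and 8.74. Krt18 differed by -0.24 and Krt8 was 2.06-fold lower, while Ocln (5.79-fold) and Cldn3 (5.33-fold), of tight junctions, were also lower. The 4 higher genes were Cldn4, which went from 5.92 on Day0 through 9.30, 11.41 and 7.60 to 11.40 on iPS (44.5-fold), Cdh3 (P-cadherin, 16.2-fold), Cldn6, a claudin of embryonic epithelia (6.32-fold), and Dsg2, a desmosomal cadherin (2.27-fold). Cldn4 on iPS was thus level with 2WND+2W+D and above the other 3 arrays.

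Transcripts of genes listed for airway cells were also read on the Day0 array. The paper reports most sorted cells as positive for both SPC (Sftpc) and CD74, and the trachea and bronchi as cut away. Which cells these transcripts came from was not tested. Of 19 club, goblet and basal cell genes, 14 were lower and 1 higher (median -3.01), and 17 were at or above 4.78 on Day0 against 8 on iPS. Scgb1a1, the secretory protein of club cells, was at 12.37 on Day0, 11.19, 7.39 and 11.52 in culture and 3.62 on iPS, at least 192-fold lower, Cbr2, a carbonyl reductase, was 248-fold lower and Cyp2f2, a club cell cytochrome, 69.5-fold. Krt17, a basal keratin, was at least 16.2-fold higher. Of 19 ciliated cell genes, 16 were lower and 0 higher (median -1.75, 15 lower when counted from 4.78), with 18 at or above 4.78 on Day0 and 11 on iPS. Cdhr3 was at least 31.1-fold lower and Foxj1, the master factor of motile cilia, 3-fold. The part of airway cells in the genes lower in iPS cells was not tested.

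Markers of cells that the sort should remove were also read. Of 16 endothelial genes compared, of 18 with a probe, 5 were lower and 3 higher (median -0.21), with 15 at or above 4.78 on Day0 and 12 on iPS. Over all genes compared, 17.1% were lower and 19.3% higher. Cdh5, the cadherin of endothelial junctions, was at 9.18 on Day0, 5.13, 4.46 and 4.86 in culture and 6.05 on iPS, 8.74-fold lower, and Kdr, the VEGF receptor, was 4.64-fold lower. Pecam1 (CD31), on which the sort is negative but which mouse pluripotent cells express, was at 6.85 on Day0, from 4.53 to 4.73 in culture and 8.47 on iPS, 3.07-fold higher. Of 18 leukocyte and macrophage genes compared, of 22 with a probe, 2 were lower and 2 higher (median 0.20). Ptprc (CD45) lay below 4.78 on both arrays, at 4.19 on Day0 and 3.89 on iPS. Laptm5, a lysosomal protein of leukocytes, was 8.67-fold higher on iPS and Cd14 5.92-fold lower, and of the 4 leukocyte markers 2 were at or above 4.78 on Day0 and 3 on iPS.

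Immune genes were lower in most lists. AEC-II cells are unusual among epithelia in making MHC class II, and of 8 such genes 8 were lower (median -3.96). H2-Aa went from 11.73 on Day0 through at most 10.45 in culture to 4.30 on iPS, at least 124-fold lower, H2-Ab1 from 12.95 to 7.83, 34.7-fold, and Ciita, the class II activator, was 4.27-fold lower. The invariant chain Cd74 has no probe with 1 symbol. Of 14 MHC class I and antigen processing genes 8 were lower and 0 higher (median -1.57), with H2-K1 13.9-fold lower, Psmb8, of the immunoproteasome, 6.37-fold, and B2m, the class I light chain, 2.90-fold. Of 30 innate defence and complement genes compared, of 31 with a probe, 19 were lower and 2 higher (median -1.93). Il33, an alarmin, went from 10.56 on Day0 to 4.86 on iPS, 51.9-fold lower, with 5.47 to 6.09 in culture, and Lcn2, an iron-binding defence protein, was 17.9-fold lower. The higher genes were Saa3, an acute phase protein (at least 4.11-fold), and Il6, which lay below 4.78 on both arrays. Interferon response genes had 10 lower and 2 higher of 30 compared of 32 with a probe (median -0.54), with Ifih1, the sensor MDA5, 16.2-fold lower and Ifitm3 (8.27-fold) and Bst2 (3.13-fold) higher.

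Xenobiotic and oxidative metabolism genes had 22 lower and 3 higher of 36 compared, of 38 with a probe (median -1.30, 19 lower when counted from 4.78). Aox3, an aldehyde oxidase, was at least 121-fold lower, Cyp2b10 at least 67.3-fold and Cat, catalase, 4.51-fold, while Ephx2, the soluble epoxide hydrolase, was at least 7.80-fold higher. FGF signalling genes were split, with 9 higher and 8 lower of 25 compared, of 26 with a probe (median 0.32). Fgfr2, the receptor through which FGF7 and FGF10 reach lung epithelium, was at 11.52 on Day0, 9.34, 8.53 and 9.37 in culture and 6.55 on iPS, 31.2-fold lower, and Fgf1 and Fgfr3 were 17.6-fold and 11.5-fold lower. On the other side, Fgfr1 was 4.14-fold and Spry4, a feedback inhibitor of the pathway, 6.01-fold higher, beside Fgf4, the FGF ligand made by pluripotent cells themselves (17.1-fold).

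**Figure D3:**
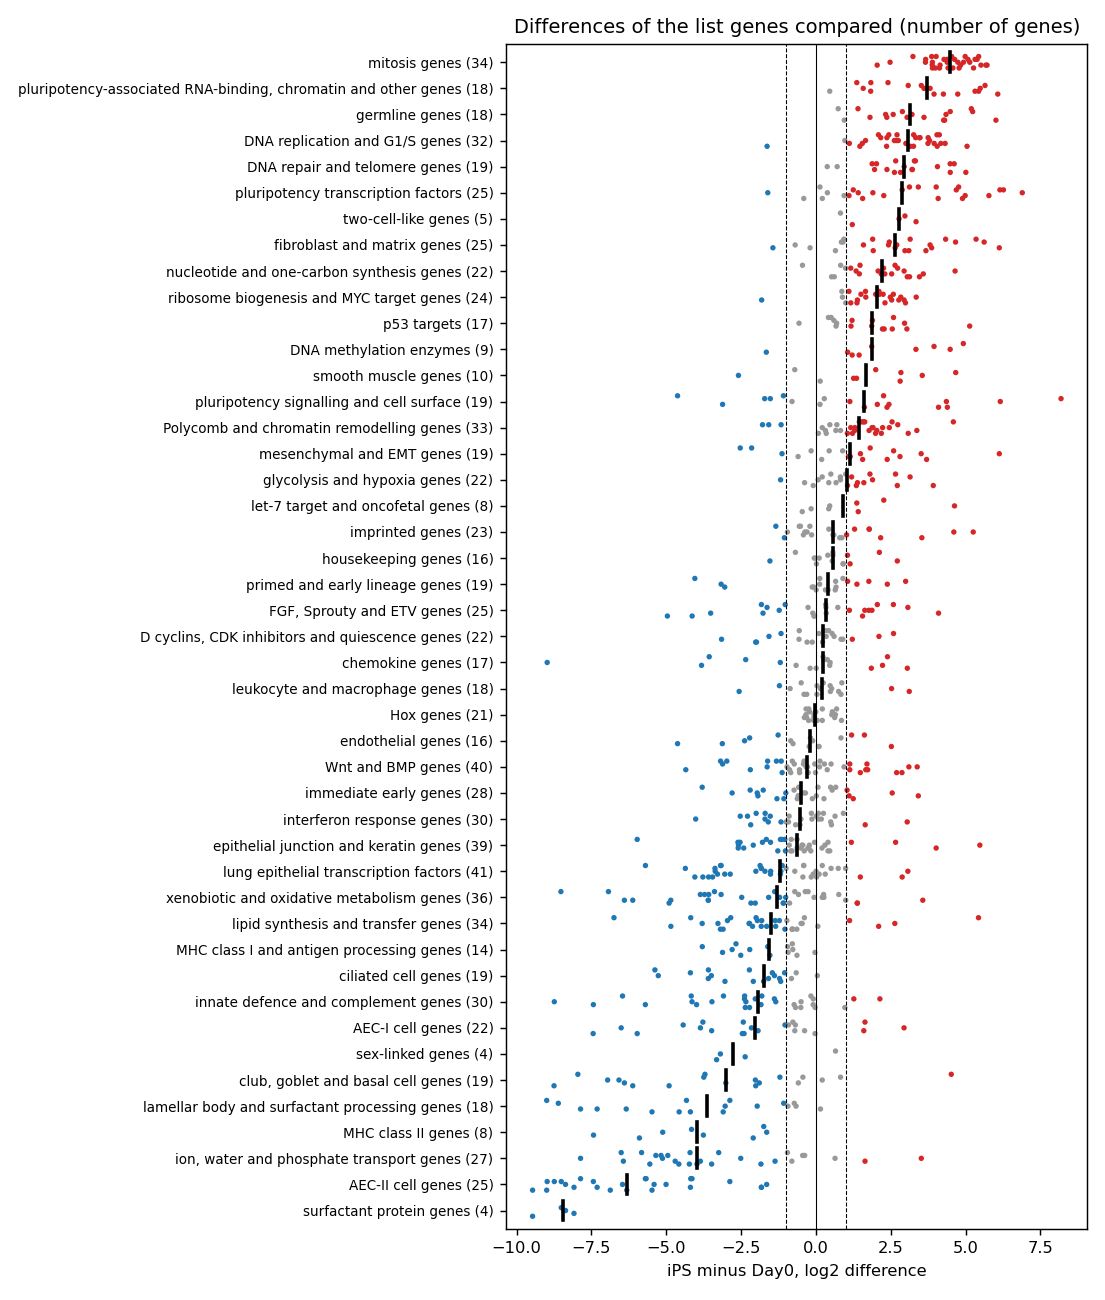
Log2 difference, iPS minus Day0, of each gene compared in the lists with 4 or more such genes (number in parentheses), with the list's median as a bar and dashed lines at 2-fold. The medians run from -8.44 for surfactant protein genes to 4.47 for mitosis genes, and several lists in the middle of the plot hold genes on both sides.

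Pluripotency transcription factors were higher in 19 of 25 genes with a probe and lower in 1 (median 2.88, 18 higher when counted from 4.78), and 17 stood at least 2-fold above each of the other 4 arrays. Nanog, the homeodomain factor of naive pluripotency, was at 5.26 on Day0, 5.52, 4.75 and 5.00 on the cultured arrays and 12.15 on iPS, 119-fold higher. Sox2, a partner of Oct4, was at 5.76 on Day0, 6.50, 4.40 and 7.01 on the cultured arrays and 10.74 on iPS, 31.7-fold higher. Pou5f1 (Oct4) had a small gap, with 5.51 on Day0, 5.09, 5.32 and 5.25 on the cultured arrays and 6.61 on iPS, 2.15-fold. Nanog and Sox2 were thus far above all other arrays on iPS, and Pou5f1 by 1.10 over Day0.

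For the other reprogramming factors the cultured arrays were high as well. Klf4 was at 6.18 on Day0, 8.65, 9.12 and 8.82 on the cultured arrays and 9.60 on iPS, 10.7-fold higher than Day0. Myc was at 6.21 on Day0, 8.26, 8.37 and 7.95 in culture and 7.25 on iPS, 2.06-fold higher than Day0 and below each cultured array. The probes cannot tell the endogenous genes from the Dox-driven cassette where they read the coding sequence. Nr0b1 (Dax1), an X-linked nuclear receptor, was at least 40.4-fold higher, Utf1, a chromatin protein, at least 32.3-fold, Sall4, a zinc finger partner of Oct4, 29.7-fold, Zfp42 (Rex1) at least 8.17-fold and Esrrb, a nuclear receptor of the naive state, at least 1.53-fold. The exception was Stat3, the effector of LIF, which went from 11.07 on Day0 to 9.46 on iPS, 3.05-fold lower. Tfcp2l1 (9.91 on iPS against 10.31 on Day0) and Klf5 (10.03 against 9.82), which are also factors of naive pluripotency, were within 2-fold.

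The promoters of Nanog and Zfp42 are shown because both genes were low on the other 4 arrays and their windows hold letters of Oct4 and Sox2 motifs. Capitals mark, in Nanog (chr6:122707239-122707488, plus strand, at -75), the composite of CATTGT, 1 base of any kind and ATGCAAA, and in Zfp42 (chr8:43307010-43307259, minus strand, at -186), the octamer ATGCAAAT. Both matches read on the opposite strand to the gene, so the reverse complement is in capitals.
Nanog: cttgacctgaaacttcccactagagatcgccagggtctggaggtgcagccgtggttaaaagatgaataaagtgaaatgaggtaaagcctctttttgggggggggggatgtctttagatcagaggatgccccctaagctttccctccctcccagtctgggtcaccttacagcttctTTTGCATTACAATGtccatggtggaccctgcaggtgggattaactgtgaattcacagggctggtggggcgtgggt
Zfp42: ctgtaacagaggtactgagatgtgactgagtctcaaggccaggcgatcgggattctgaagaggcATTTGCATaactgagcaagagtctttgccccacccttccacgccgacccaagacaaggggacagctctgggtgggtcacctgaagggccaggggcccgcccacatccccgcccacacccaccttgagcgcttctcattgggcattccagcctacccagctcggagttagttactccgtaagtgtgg
The composite holds the SOX motif CATTGT and 7 letters of the octamer, and was added after the Nanog promoter had been seen. Beyond that overlap, no match shown in capitals for any gene here overlaps a match of another motif. It was found in 1 of 27025 promoter windows, that of Nanog. The octamer was in 1.75% of all windows, 1.45% of those of the genes compared, 2.08% of those of genes higher in iPS cells, 1.66% of those of genes lower and 1.20% of those within 2-fold, and in 2 of 21 windows of the pluripotency factors (Zfp42 and Zfp296). CATTGT was in 12.8% of all windows, 7.64% for the genes compared, 7.07% for genes higher, 8.33% for genes lower and 7.62% within 2-fold. For genes higher in iPS cells the share was above that of the genes compared for the octamer and below it for CATTGT, and no difference between shares was tested.

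Surface and signalling genes of pluripotency had members on both sides. Of 19 compared of 20 with a probe, 11 were higher and 5 lower (median 1.62). Tdgf1 (Cripto), the Nodal co-receptor, was at 2.94 on Day0, 3.26, 3.17 and 3.16 on the cultured arrays and 11.13 on iPS, at least 81.2-fold higher, and its difference of 8.19 was the highest of the genes compared as deposited. Tcl1, a co-activator of Akt, went from 4.81 on Day0, with 4.70 to 4.81 in culture, to 10.97 on iPS, 71.4-fold. Kit was 21.0-fold, Lefty1, a Nodal inhibitor, 5.42-fold, Alpl, the alkaline phosphatase stained in colonies, 5.18-fold and Nodal at least 3.75-fold higher. The lower genes were Esam (at least 20.2-fold), Bmp4 (8.69-fold), Icam1 (3.28-fold) and both receptor chains for LIF, Lifr (2.88-fold) and Il6st (2.12-fold). Of other surface genes named in the study, Itga6, an integrin alpha chain, was at 8.86 on iPS and 6.15 on Day0 (6.54-fold higher), and Itgb4 at 6.50 and 6.59. Fut4, a fucosyltransferase, was read because the study stained the SSEA-1 epitope, and was at 3.44 on iPS and 5.70 on Day0 (at least 1.89-fold lower). The RNA level of this enzyme does not measure the epitope. Of 18 RNA-binding, chromatin and other pluripotency-associated genes compared of 20 with a probe, 17 were higher and 0 lower. Counted from the median of all values, 16 were higher. Of the 20, 7 were at or above that median on Day0 and 18 on iPS, so the 18 compared entered through the iPS array. Over the 20 the median difference was 3.56, or 3.30 when counted from the median of all values. Among the higher genes were Fbxo15 (at least 42.7-fold), Dppa4 (at least 34-fold), Dppa2 (at least 23.2-fold) and Dppa3 (Stella, at least 17.2-fold). Lin28a, the let-7 antagonist, was 2.58-fold higher, from 5.48 to 6.84.

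Genes of primed or differentiating cells were mostly within 2-fold or split. Of 19 compared, of 24 with a probe, 5 were higher and 3 lower (median 0.41, and 0.14 with 3 higher when counted from 4.78), beside 19.3% and 17.1% over all genes compared. The higher genes included Pou3f1, of the epiblast (at least 7.18-fold), Nes, nestin (5.22-fold), and Fgf5, of the primed epiblast (3.40-fold). The lower genes were Foxa2 (16.5-fold) and Gata6 (8.99-fold), endoderm factors that AEC-II cells use, and Elf5 (at least 4.39-fold). Sox17 (4.94 on both arrays) and Gata4 (5.28 on iPS and 5.35 on Day0) hardly differed, and Pax6 and Cdx2 were below 4.78 on both. Two-cell-like genes, seen in a small share of mouse pluripotent cells, were compared for 5 of 9, with 4 higher and 0 lower (3 higher when counted from 4.78). These 5 were the ones at or above 4.78 on iPS, and over the 9 with a probe the median difference was 0.87, or 0.05 when counted from 4.78. Gm4340 was 10.2-fold and Zfp352 at least 3.90-fold higher.

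Germline genes were higher in 16 of 18 genes compared and lower in 0, of 22 with a probe (14 higher when counted from 4.78), and 3 of the 22 were at or above 4.78 on Day0 against 18 on iPS. The 18 compared entered through the iPS array, and over the 22 with a probe the median difference was 2.73, or 1.94 when counted from 4.78. Mael (maelstrom), of the piRNA pathway, was at 3.52 on Day0, 3.20, 3.11 and 3.40 on the cultured arrays and 8.71 on iPS, at least 15.2-fold higher. Rpl10l, a retrogene of a ribosomal protein used in meiosis, went from 2.85 to 8.86, at least 16.9-fold, Tdrd12, a tudor protein of the piRNA pathway, from 4.01 to 9.25, at least 22.1-fold, and Mov10l1, its helicase, from 4.07 to 8.34, at least 11.8-fold. Dazl, a germ cell RNA-binding protein, went from 3.38 to 7.68, at least 7.44-fold. These genes were below 4.78 on each of the other 4 arrays. Brdt and Taf7l were below 4.78 on Day0 and on iPS.

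Promoters of germline genes are shown for the E-box TCACGTG, the letters read by MAX with MYC, or with MGA in the complex that silences such genes. Capitals mark TCACGTG or its reverse complement in Mael (chr1:166238745-166238994, minus strand, at -223), Stk31 (chr6:49395289-49395538, plus strand, at -55) and Mov10l1 (chr15:88982744-88982993, plus strand, at -247).
Mael: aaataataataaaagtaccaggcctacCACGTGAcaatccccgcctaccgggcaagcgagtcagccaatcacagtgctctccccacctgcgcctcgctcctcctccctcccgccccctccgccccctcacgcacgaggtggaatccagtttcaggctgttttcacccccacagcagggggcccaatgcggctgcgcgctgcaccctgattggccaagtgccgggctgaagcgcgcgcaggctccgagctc
Stk31: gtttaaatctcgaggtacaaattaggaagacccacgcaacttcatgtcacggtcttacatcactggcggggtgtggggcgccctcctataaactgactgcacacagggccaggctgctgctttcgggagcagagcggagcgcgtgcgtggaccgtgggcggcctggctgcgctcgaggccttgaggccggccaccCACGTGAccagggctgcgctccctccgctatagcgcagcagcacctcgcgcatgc
Mov10l1: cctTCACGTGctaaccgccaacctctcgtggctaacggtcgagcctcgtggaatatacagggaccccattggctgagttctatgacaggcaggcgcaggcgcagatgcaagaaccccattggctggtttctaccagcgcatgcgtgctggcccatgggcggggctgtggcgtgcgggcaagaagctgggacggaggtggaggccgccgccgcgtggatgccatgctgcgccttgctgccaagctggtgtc
The E-box was in 5 of 19 windows of the germline list (26.3%), those of Mael, Stk31, Taf7l, Mov10l1 and Brdt, in 3.84% of all windows, in 5.63% of the windows of the genes compared, in 5.56% of those higher in iPS cells, in 4.77% of those lower and in 5.89% of those within 2-fold, so genes higher in iPS cells held it no more often than the genes compared. Of the 5 genes, Mael and Mov10l1 were among those far higher on iPS, Stk31 went from 3.19 to 5.00, at least 1.16-fold, and Taf7l and Brdt stayed below 4.78, so genes with the letters stood at both ends of the list.

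Enzymes of DNA methylation were higher in 8 of 9 and lower in 1 (median 1.86). Tet1, which oxidises methylcytosine, was at 5.18 on Day0, 4.63, 5.46 and 5.08 on the cultured arrays and 10.11 on iPS, 30.3-fold higher, Uhrf1, which brings Dnmt1 to replicating DNA, was 22.4-fold higher, Dnmt3l, the cofactor of de novo methylation, at least 12.7-fold, Dnmt3b 10.1-fold and Dnmt1 2.31-fold. Tet3, the family member of the zygote and of differentiated cells, was 3.16-fold lower, at 6.14 on iPS and from 7.38 to 7.80 on the others. Polycomb and chromatin remodelling genes had 22 higher and 3 lower of 33 (median 1.45), with Hells 24.1-fold, Ezh2, the H3K27 methyltransferase, 10.3-fold and Trim28 4.09-fold higher, and Smarcc2 (3.45-fold), Bmi1 (2.98-fold) and Ring1 (2.24-fold) lower. Imprinted genes had 8 higher and 2 lower of 23 compared of 24 with a probe (median 0.57). Peg3, a paternally expressed zinc finger gene, went from 5.25 on Day0 through 8.70, 9.53 and 9.09 to 10.50 on iPS, 38.2-fold higher, and Mest was at least 16.9-fold higher. Nnat was 2.53-fold and Airn at least 1.55-fold lower, and Meg3 was at 4.66 on iPS and 5.08 on Day0.

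Cell cycle genes were higher almost throughout. Of 34 mitosis genes, 34 were higher, 34 were at least 2-fold above each of the other 4 arrays on iPS, and the median difference was 4.47, from 2.04 for Foxm1, the G2/M transcription factor, to 5.71. Ccnb2, a mitotic cyclin, was at 5.58 on Day0, 5.06, 7.11 and 5.94 on the cultured arrays and 11.29 on iPS, 52.5-fold higher, and Mki67, the proliferation antigen, at 6.03, then 4.53, 7.39 and 5.20, then 10.31, 19.4-fold. Aurka was at least 44.9-fold, Plk1 39.8-fold, Top2a at least 30.6-fold and Cdk1 27.5-fold higher. Of 32 DNA replication and G1/S genes, 30 were higher and 1 lower (median 3.08), with Ccna2 33.1-fold, Ccne1 18.0-fold and Mcm10 17.4-fold higher. The exceptions were E2f2 (at least 2.48-fold lower) and Pcna, which was at 10.97 on iPS and already at 10.01 on Day0. Mybl2, counted here in the list of RNA-binding, chromatin and other pluripotency-associated genes, was 43.3-fold higher.

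The genes that set entry into the cycle or hold it back were split. Of 22 D cyclins, CDK inhibitors and quiescence genes, 3 were higher, 5 lower and 14 within 2-fold (median 0.24), beside 19.3% higher and 17.1% lower over all genes compared. Cdkn1a (p21) was at 9.19 on Day0, 12.34, 12.42 and 12.39 on the cultured arrays and 11.78 on iPS, 6.03-fold higher than Day0 and below each cultured array. Cdk6 (4.30-fold) and Cdkn2a (2.32-fold) were the other 2 higher genes, and Gas6 (8.89-fold), Btg1 (4.04-fold), Rbl2 (3.96-fold) and Ccnd1 (2.97-fold) were lower. Of 17 p53 targets 11 were higher and 0 lower (median 1.86), with Eda2r at least 16.2-fold, Phlda3 8.21-fold, Plk3 7.78-fold and Mdm2, the p53 ligase, 3.70-fold higher, and 2 of the 17 stood at least 2-fold above each of the other 4 arrays on iPS. Of 19 DNA repair and telomere genes 17 were higher and 0 lower (median 2.95), with the helicase Blm at least 28.3-fold, the nuclease Exo1 22.4-fold and Tert, the telomerase catalytic subunit, 3.88-fold.

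Growth and metabolic genes followed the cycle genes in direction. Of 24 ribosome biogenesis and MYC target genes, 20 were higher and 1 lower (median 2.05), with Dkc1 10.2-fold and Srm 7.95-fold higher and Tfrc, the transferrin receptor, 3.52-fold lower. Of 22 nucleotide and one-carbon synthesis genes, 17 were higher and 0 lower (median 2.22). Gldc, the glycine decarboxylase of the one-carbon cycle, went from 3.87 on Day0, with 3.38 to 4.07 in culture, to 8.52 on iPS, at least 13.3-fold, Mthfd2 was at least 12-fold and Psat1, of serine synthesis, 11-fold higher. Of 22 glycolysis and hypoxia genes, 11 were higher and 1 lower (median 1.02). Slc2a3 (GLUT3) was at 7.75 on Day0, at most 6.39 in culture and 11.67 on iPS, 15.1-fold higher, Pfkp was 8.84-fold, Pgk1 6.58-fold and Slc2a1 6.31-fold higher, and Car9, a hypoxia-induced carbonic anhydrase, 2.27-fold lower. Of 16 housekeeping genes 4 were higher, 1 lower and 11 within 2-fold (median 0.56), beside 19.3% higher and 17.1% lower over all genes compared. Gapdh was 2.08-fold, Actb 2.20-fold and Tubb5 4.34-fold higher.

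Fibroblast and matrix genes were also higher, and here the Day0 array was the one that stood apart. Of 25 genes with a probe, 18 were higher and 1 lower (median 2.65, 17 higher when counted from 4.78), and 0 were at least 2-fold above each of the other 4 arrays on iPS. Fn1, fibronectin, was at 6.11 on Day0, 12.16, 12.94 and 12.27 on the cultured arrays and 12.23 on iPS, 69.8-fold higher. Col1a1, the collagen I chain, was at 6.14 on Day0, 10.21, 12.22 and 10.68 in culture and 8.78 on iPS, 6.26-fold higher than Day0 and below each cultured array. Tnc, tenascin C, was at least 27.9-fold higher, Timp1 at least 19.8-fold and Lox, which cross-links collagen, at least 18.8-fold, while Col6a1 was 2.71-fold lower. Of the 7 fibroblast markers, which embryonic feeder cells share, 6 were higher, 5 were at or above 4.78 on Day0 and 7 on iPS, and their median level was 5.44 on Day0 and 7.07 on iPS, against 9.25 to 9.92 in culture. Among them Pdgfra was at least 4.88-fold, Dcn 3.72-fold, Lum at least 3.23-fold and Thy1 3-fold higher, and Col3a1 was at 6.29 on iPS and 5.44 on Day0.

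Other mesenchymal genes were on iPS at levels between Day0 and 2WND+2W+D by their list medians. Of 19 mesenchymal and EMT genes 11 were higher and 3 lower (median 1.15), or 9 and 2 when counted from 4.78 (median 0.62). Their median level was 5.55 on Day0, 6.34 on iPS and at least 7.57 in culture. Vim was 11.4-fold and Twist1 at least 10-fold higher, and Tgfbr2, Tgfb3 and Itgb6 were lower. Smooth muscle genes had 7 higher and 1 lower of 10 (median 1.68), with median levels of 5.65 on Day0, 6.35, 9.35 and 6.69 in culture and 7.58 on iPS, and with Tagln (transgelin) 25.4-fold and Acta2 (smooth muscle actin) 7.03-fold higher and Mylk at least 5.03-fold lower. Vim was at 9.92 on iPS and from 9.52 to 10.59 in culture, so its gap was to Day0 (6.40). The cultured AEC-II cells were grown over embryonic fibroblast feeders. Whether the RNA of the cultured arrays or of the iPS array included feeder cells is not given in the sources used here. The part of such cells in these results was not tested. Without the fibroblast, smooth muscle, mesenchymal, endothelial, leukocyte, club and ciliated lists, a choice made after seeing the data, 2937 genes were higher and 2593 lower. Leaving out listed genes can lower the counts only by the listed genes past 2-fold. These counts therefore do not measure the part of other cells. Among the 15 largest gaps outside the lists, Nid2, a basement membrane nidogen (62.8-fold higher), and Mmp3, stromelysin (at least 50.3-fold), were likewise well above Day0 in culture, whereas Trh, thyrotropin-releasing hormone (49.0-fold), and Fmr1nb, an X-linked gene (48.4-fold), were high on iPS alone.

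The remaining lists had genes on both sides or few calls, beside 19.3% higher and 17.1% lower over all genes compared. Of 40 Wnt and BMP genes compared, of 44 with a probe, 10 were higher and 10 lower (median -0.31), with Nkd1, a Wnt inhibitor, 20.4-fold lower, Grem1, a BMP antagonist, at least 9.34-fold higher and Bmp7 7.33-fold higher. Of 28 immediate early genes 5 were higher and 9 lower (median -0.49). Fosb (at least 12.5-fold), Hspa1a (6.96-fold), Fos (4.59-fold) and Jun (3.90-fold), genes of the stress and growth factor response, were lower on iPS. Chemokine genes had 4 higher and 5 lower of 17 compared of 20 with a probe (median 0.24), with Ccl2 8.30-fold and Cxcl14 4.67-fold higher. Of 21 Hox genes compared of 27 with a probe, 0 were higher and 0 lower (median -0.02). Let-7 target and oncofetal genes had 4 higher and 0 lower of 8 compared of 9 with a probe (median 0.91), led by Igf2bp3 (at least 21.4-fold). In the microRNA list, 17 genes of the miR-290, miR-302, let-7 and miR-34 groups had a probe and 3 were compared, Mirlet7a-1, Mirlet7e and Mir34a, of which 0 were higher and 1 was lower (0 when counted from 4.78). No miR-290 or miR-302 gene reached 4.78 on any array, so these were not compared.

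By chromosome, the X differed from the autosomes in its share of higher genes. Of 514 X-linked genes compared, 157 (30.5%) were higher and 63 (12.3%) lower, with a median difference of 0.36. Over the autosomes, 18.9% were higher and 17.2% lower, and single autosomes ran from 16.1% to 23.6% higher, 14.1% to 21.7% lower and medians of -0.11 to 0.09. Among genes at or above 4.78 on both arrays, 24.4% of 360 X-linked genes were higher and 13.1% lower (median 0.26), against 17.7% and 15.8% on the autosomes (median 0.03). The largest X-linked gaps were those of Fmr1nb, Fthl17e, a ferritin heavy chain-like gene (at least 41.3-fold), Nr0b1 and Slc7a3, an arginine transporter (at least 38.5-fold), then Alg13 (28.4-fold), Timp1, Xlr3c (18.9-fold), Fthl17b (17.9-fold), Gprasp2 (16.5-fold), Eda2r and Dusp9, a MAP kinase phosphatase (16.2-fold), so genes of several kinds made up the top.

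**Figure D4:**
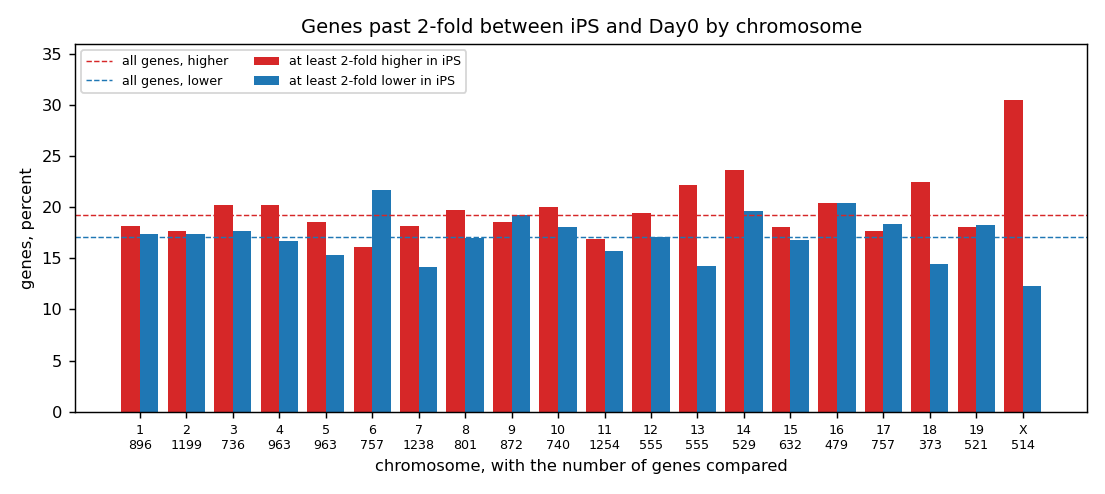
Percent of the genes compared on each chromosome (number under each name) that were at least 2-fold higher (red) or lower (blue) in iPS than in Day0, with dashed lines for all genes (19.3% and 17.1%). The X has 30.5% higher and 12.3% lower, and no autosome passes 23.6% higher.

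Of 5 Y-linked genes compared 3 were lower, and of 4 genes compared in the list of sex-linked genes, of 5 with a probe, 3 were lower and 0 higher (median -2.78). Uty was at 7.35 on Day0, 7.03, 6.54 and 7.21 in culture and 4.16 on iPS (at least 5.92-fold lower), Kdm5d went from 6.90 to 4.53 (at least 4.34-fold) and Eif2s3y from 6.62 to 3.31 (at least 3.58-fold). Xist, the RNA that coats an inactive X, was below 4.78 on both arrays, at 4.08 on Day0 and 4.74 on iPS, and reached 8.85 on 2WND+2W+D. The sex of the donors is not given in the sources used here. Mitochondrially encoded genes were lower in 8 of 10 and higher in 0 (median -1.89), all 10 at or above 4.78 on both arrays. COX1, a cytochrome oxidase subunit, differed by -0.41 and COX3 by -0.67. ND4L, a complex I subunit, went from 10.49 on Day0 through 8.56, 8.25 and 8.60 in culture to 6.86 on iPS, 12.4-fold lower than Day0. For the 10 genes the median difference from Day0 was -0.70 on 2WND, -0.47 on 2WND+2W+D and -0.69 on 2WND+2W+D+2W-D. Part of the gap to Day0 was therefore seen on the cultured arrays too.

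Promoters of the genes were compared by their number of CpG dinucleotides, since CpG-rich promoters are typical of widely used genes and CpG-poor ones of tissue-specific genes. The table of RefSeq windows (300 bases) held 12004 of the 15436 genes, and the median over all 27025 windows was 7 CpG. Genes higher in iPS cells had a median of 20 CpG (2304 windows), genes lower 17 (2054 windows) and genes within 2-fold 19 (7646 windows). The share above 7 CpG was 85.0% for genes higher, 74.3% for genes lower and 78.6% within 2-fold. At 4-fold the medians were 19 for 877 genes higher and 13 for 769 genes lower, with 81.4% and 65.8% above 7 CpG. The 20 AEC-II genes with a window had a median of 8 CpG and the 19 germline genes with one a median of 20, below and just above the median of 19 over the genes compared.

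**Figure D5:**
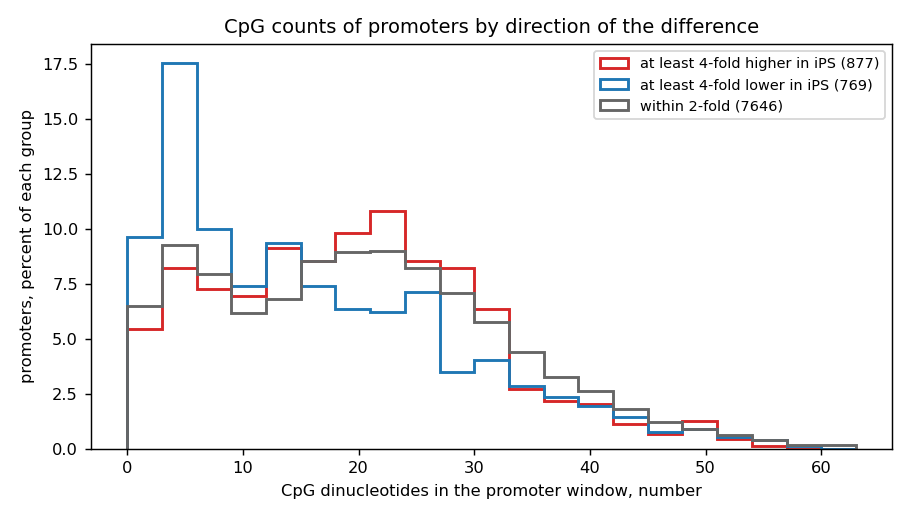
Distribution of the number of CpG dinucleotides in the 300-base promoter window, as percent of each group, for genes at least 4-fold higher (877) or lower (769) in iPS cells and genes within 2-fold (7646). Genes lower in iPS cells pile up at the low end, where their median is 13 against 19 in the other groups.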

How the data were processed

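RNA of mouse cells was hybridised to Affymetrix Mouse Gene 2.0 ST arrays, 1 per condition. Affymetrix Expression Console was the program used by the authors, and log2 values of 41345 probes were deposited. The program's version, its algorithm, the scaling between arrays and the genome build are not given in the sources used here, and the values were read as log2 from their range of 1.25 to 13.58. The array medians were 4.83 on Day0 and 4.77 on iPS. No detection calls were used, and the number of arrays limits the precision.

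Probes with no symbol (16004) or several (1820) were left out. Of 23521 probes with 1 symbol, 23328 were matched to RefSeq by identifier and 193 were named by the platform table alone. Values were used as deposited, and the comparison is the difference of 2 log2 values with no test. Members and gene lists were chosen with earlier results of these data known. The genes named were the 15 most different on either side, counted from the median and without predicted genes, small RNAs and receptor families, members of the 46 lists, and genes the study names. X-linked, Y-linked and mitochondrial genes were named after their values were seen. Of 595 genes with several probes past the filter, 5 had probes past 2-fold in opposite directions, and 0 of them are in the lists.

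Alternatives were quantile normalization, aligned medians, other filters on dim genes, values below the median raised to it, the mean over a gene's probes, all probes, and a 4-fold threshold. The calculation was run on simulated arrays with 200 genes raised 4-fold and the noise of the closest pair of arrays. At 2-fold it recovered 200 of them and 0 other genes. With noise that small the outcome was largely fixed in advance, so it checks the calculation alone. Scripts ran under Python 3.11.15 with pandas 2.3.3 and numpy 2.4.6, and plots were drawn with matplotlib 3.10.9.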

Additional observations from a re-analysis of the deposited data

Results flagged for a closer look

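Probes outside the gene comparison carried differences as well. Of 16004 probes with no gene symbol, 7431 passed the filter, and relative to Day0 the iPS array was at least 2-fold higher for 1070 and lower for 1173, with a median difference of -0.11. Of 1820 probes with several symbols, 1201 passed, and 286 were higher and 140 lower, with a median of 0.17. These probes were not assigned to genes, and with no replicate array the differences were not tested.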

How the results depend on the processing

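Without replicates, the alternatives show how far values move and give no error. No paired analysis was possible because each condition has 1 array. Over the alternatives at 2-fold with 1 symbol, from 2399 to 3203 were higher and from 2058 to 2743 lower, against 2978 and 2635. The median difference of all genes lay between -0.02 and 0.07, except for 0.12 with the filter at the 75th percentile. The 4-fold threshold left 1170 genes higher and 1010 lower, and 170 list members lower against 267. With all probes, 4470 were higher and 4056 lower. Of 610 named genes followed, 0 changed direction, and 151 moved by more than 0.23 with values below the median raised to it and 31 with the mean over probes. These genes were picked for gaps of at least 2-fold, and other filters or raised values cannot reverse a difference. The count of 0 was therefore largely fixed in advance. Of the X-linked genes, 26.3% were higher with values below the median raised to it and 24.4% with both arrays at or above it, against 30.5%. Promoters above 7 CpG made up 81.4% of genes higher and 65.8% of genes lower at 4-fold, 87.2% and 76.6% with low values raised, and 87.6% and 76.9% with any listed window of a gene, a choice made after seeing the data like those on the X. Any window gave 8.64% of genes higher and 10.3% of genes lower with CATTGT, and 17.1% and 16.2% with CTCAAG. The median of the primed, leukocyte, chemokine, FGF, Wnt and BMP, Hox and miRNA lists changed sign or majority under at least 1 alternative.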
